A study of Caenorhabditis elegans with 4 samples.

Results

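Chromosome IV carried 724 of the 3378 binding regions (peaks) of the forkhead transcription factor FKH-2 in the combined peak list, and these 724 are described here. They were chosen by position alone, as every combined peak whose chromosome is IV, and compared with the 2654 combined peaks on the other nuclear chromosomes. The assay was chromatin immunoprecipitation followed by sequencing (ChIP-seq) on whole L3 larvae of Caenorhabditis elegans, all hermaphrodites. All 4 samples, 2 ChIP and 2 input, came from strain OP185, in which an unc-119(ed3) mutant carries the integrated transgene wgIs185, that is, fkh-2 with TY1, EGFP and FLAG tags and a rescuing copy of unc-119. A strain note in the labels once names the fusion FKH-1, against FKH-2 in the genotype and titles, and the name FKH-2 is used here. Animals were grown at 20 °C and fixed with 2% formaldehyde, and antibodies to GFP pulled down the tagged protein, so the peaks describe the tagged transgene product of 1 integrated line in all cell types of the animal together. Untagged controls and input values were not analysed here. Whether separate cultures were used for the 2 ChIP samples is not stated in the labels. What differs from one replicate list to the other could thus be technical alone. The p-values below rest on counts of peaks and hold no spread between replicates, technical or biological.

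Forkhead proteins bind DNA through a winged-helix domain and act at promoters and enhancers. In C. elegans, fkh-2 is known for its part in building the sensory cilia of the AWB olfactory neurons. Worm autosomes have gene-dense centres with little recombination, flanked by arms that recombine more and hold more repeats. Chromosome IV is also known as the home of the piRNA (21U-RNA) genes, which silence transposons in the germline, and forkhead proteins other than FKH-2 have been reported to act at the promoters of these genes in the worm. In RefSeq's gene table for assembly WBcel235, 14714 of 15363 piRNA genes (95.8%) lie on IV. The peaks use WormBase WS220 coordinates, another build, so no peak was placed relative to a gene and no sequence is shown.

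3 deposited lists were used. The combined list comes from PeakSeq and gives a q-value per peak. The lists of replicate 1, with 4651 of its 30000 peaks on IV, and replicate 2, with 3351 of 20799, give fixed-width regions of 400 bp and 260 bp on IV, a score of unnamed scale and a rank. The highest score of each list was shared by many peaks, 81 of them on IV in replicate 1 and 99 in replicate 2, so ranks within those ties come from the peak names. Below the ties, rank and score did not order neighbouring peaks alike: from a peak on IV to the next in rank, the score rose in 1596 of 4569 steps in replicate 1 and in 2228 of 3251 in replicate 2. Across wider ranges of rank the score fell. Examples are 2.56 at rank 917 and 0.119 at rank 27833 in replicate 1, and 2.89 at rank 2707 and 1.12 at rank 19578 in replicate 2. Because neighbouring ranks did not follow the score, rank and score are given as separate values, and neither is read as the strength of binding. Sequencing depth is unknown. Peaks are not replicates: the Fisher and binomial tests below cover counting error of peaks in these lists and not the variation between animals, and intervals are exact Clopper-Pearson 95% intervals.

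The site with the lowest q on IV was IV:14032773-14034111 (q = 2.64e-30), which at 1339 bp was also the widest peak there. Its best overlapping peaks ranked 19 in replicate 1 (score 3.09) and 68 in replicate 2 (score 3.20), both at the tied maximum of their lists. Each replicate had 2 peaks that overlapped it, and the best-ranked ones, IV:14033534-14033933 and IV:14032840-14033099, did not overlap each other. The best-ranked peaks of the replicates at this site were therefore at different positions within a single combined peak.

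The next site, IV:5593858-5594278 (421 bp, q = 5.27e-17), ranked 22 and 21 with the maximum score in both replicates, and it was the best-ranked site of IV when the poorer of its ranks is counted. IV:9538237-9538532 (296 bp, q = 8.44e-10) followed, with ranks 59 and 40. IV:15472380-15472717 ranked 95 and 109 and IV:4749909-4750227 ranked 112 and 55, each also with the maximum scores. These last sites were only in places 21 and 32 by q (4.04e-07 and 6.12e-06), so the best ranks in the replicates were not always at the lowest q values. All of these ranks lay within the ties at the maximum score, which held 611 peaks in replicate 1 and 789 in replicate 2. Their order therefore comes from the peak names and not from the score, as does the limit of 300 used next. In all, 9 combined peaks on IV had a peak ranked within the first 300 in both replicates, and 26 within the first 1000. These counts were not compared with the other chromosomes, so they do not show whether IV had many or few such sites.

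A further 3 of the lowest q values belonged to sites with the maximum score in both replicates. These were IV:10821251-10822210 (960 bp, q = 2.48e-15, ranks 606 and 153), IV:7319875-7320531 (657 bp, q = 1.45e-13, ranks 211 and 544) and IV:13887420-13887969 (550 bp, q = 1.14e-11, ranks 523 and 347). IV:9444465-9444817 (q = 8.12e-09) was similar, at ranks 129 and 46. At a pair of sites the maximum score was reached in replicate 1 but not in replicate 2. IV:654793-655111 (q = 2.46e-09) ranked 38 with the maximum score in replicate 1 but 19578 with a score of 1.12 in replicate 2. IV:7845633-7846080 (q = 6.23e-09) ranked 592 with the maximum score in replicate 1 and 2407 with a score of 2.84 in replicate 2. The scores of the replicates are not on a shared scale and were not compared with each other.

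The exception among the 10 lowest q values was IV:13549252-13549669 (418 bp, q = 7.21e-13), the fifth lowest on the chromosome. No replicate peak overlapped it, and the nearest ones lay 1511 bp away in replicate 1 and 4203 bp away in replicate 2. It was also the most isolated of the named peaks, with 153.7 kb free of combined peaks before it and 228.6 kb after it. The second free stretch, IV:13549670-13778257, was the longest gap between neighbouring combined peaks on IV, and replicate 1 had 45 peaks in it and replicate 2 had 34. The next longest gaps, IV:4873403-5081017 (207.6 kb) and IV:16663918-16863826 (199.9 kb), held 31 and 24 peaks of replicate 1 and 35 and 22 of replicate 2. In the left and right arms (defined below), the complete lists held 287 and 229 peaks per Mb in replicate 1 and 187 and 173 in replicate 2. Replicate peaks in stretches of this length are therefore not unusual.

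Across IV, combined peaks were denser on the left than on the right. With the chromosome cut into 3 equal parts by length, the left arm, IV:1-5830549, held 284 peaks (48.7 per Mb), the centre 254 (43.6 per Mb) and the right arm, IV:11661099-17491648, 186 (31.9 per Mb). The central share was 35.1% (31.6 to 38.7), and its difference from 33.3% of the length did not pass (exact binomial, p = 0.346 after adjustment over the 16 planned tests, as for all adjusted values unless stated). These 16 tests were set with earlier results of these data known. The central share was 38.7% on the other autosomes, and this difference did not pass either (Fisher exact, adjusted p = 0.131). With q below 0.001 its direction turned, at 43.0% against 38.8% (Fisher exact, adjusted p = 0.383). Of the 470 peaks in the arms, 60.4% (55.8 to 64.9) lay in the left arm against 50% of the length (exact binomial, adjusted p = 1.14e-04).

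This left excess set IV apart from the other autosomes, where 582 of 1256 arm peaks (46.3%, 43.6 to 49.1) lay in the left arm. The comparison was chosen after the shares were seen (Fisher exact, adjusted p = 5.93e-07 over 3 added tests). The left share was 44.5% on V, 44.9% on II, 48.1% on III and 54.8% on I, where only 84 peaks lay in the arms and the interval ran from 43.5% to 65.7%. On IV it was 60.0% among combined peaks overlapped by both replicates (51.5 to 68.0, 145 arm peaks). In the complete replicate lists it was smaller, 55.6% in replicate 1 (53.8 to 57.4) and 52.0% in replicate 2 (49.8 to 54.2, an interval that includes 50%). With q below 0.001 the left share on IV stayed at 60.5% but, with 86 arm peaks, did not pass against 50% of the length (exact binomial, adjusted p = 0.118). Against the other autosomes, at 42.4% under that limit, it kept its call (Fisher exact, adjusted p = 0.00977 over the 3 added tests).

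The fall in density began within the right arm. In 1 Mb steps, each of the first 13 Mb held 35 to 60 combined peaks, and each of the next 4 held 18 to 29. A boundary at 13 Mb, chosen after these counts were seen, separated 46.4 peaks per Mb before it from 26.9 per Mb after it, a ratio of 1.72. For peaks overlapped by both replicates the ratio was 1.69, from 15.1 to 8.91 per Mb. The replicate lists dropped less, by a ratio of 1.36 in replicate 1 and 1.21 in replicate 2.

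**Figure D1:**
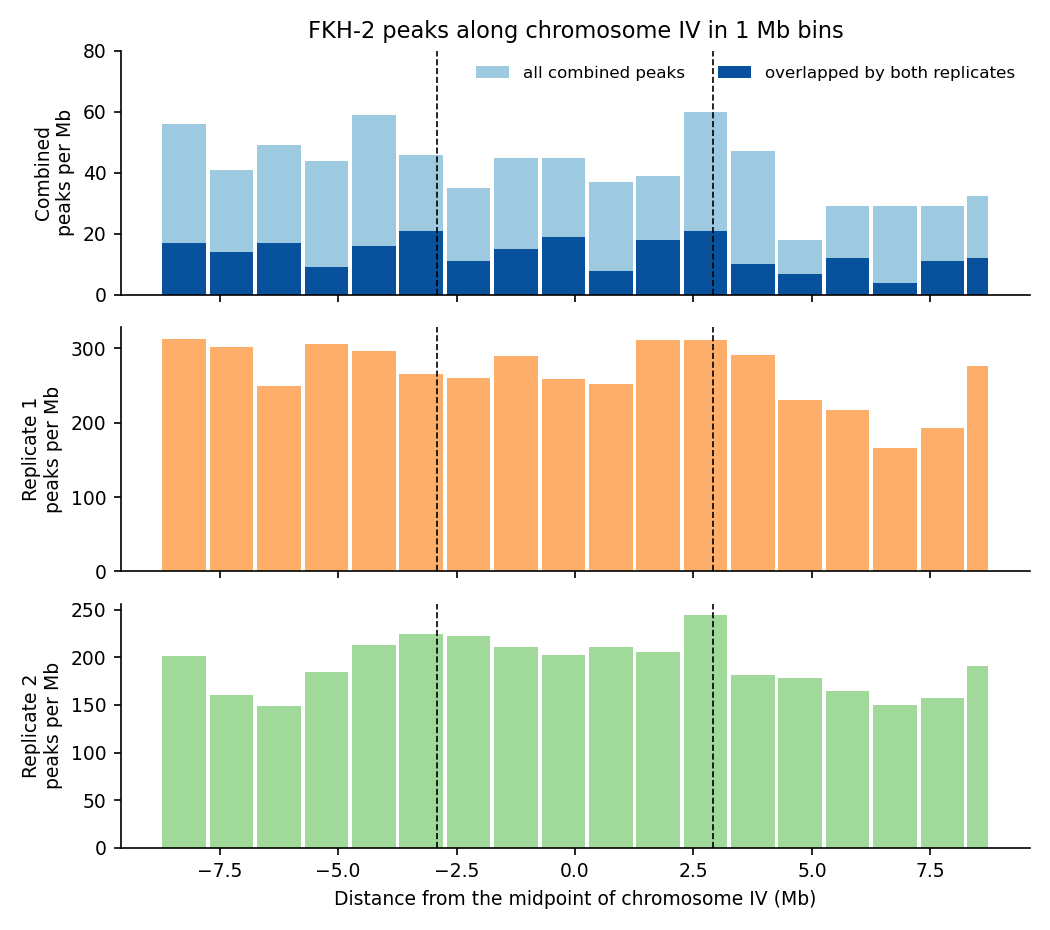
Combined peaks (top, with those overlapped by both replicates in dark blue), replicate 1 peaks (middle) and replicate 2 peaks (bottom) per Mb along chromosome IV, in bins of 1 Mb (the last bin is shorter and scaled to 1 Mb), against distance from the chromosome midpoint. Dashed lines bound the centre, and combined counts in the full bins fall from between 35 and 60 to between 18 and 29 in the last part of the right arm.

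**Figure D2:**
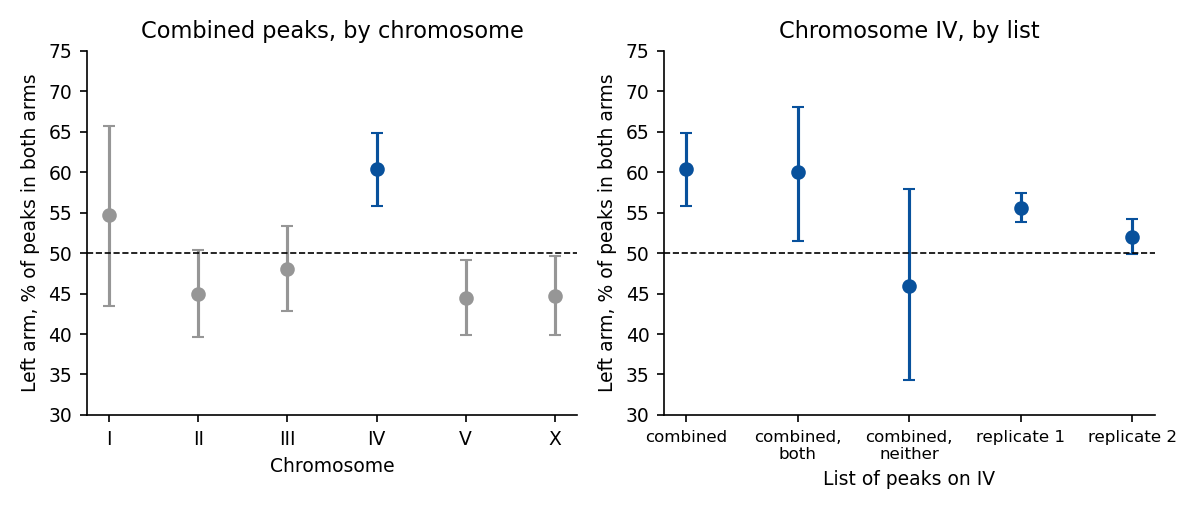
Left-arm peaks as a percentage of peaks in both arms, with exact 95% intervals, for the combined list by chromosome (left) and for lists of peaks on IV (right). The dashed line marks 50%, and IV lies at 60.4% while II, III, V and X lie below the line.

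Spacing was uneven. The median gap between neighbouring combined peaks was 13886 bp on IV, with an interquartile range of 4289 to 32769 bp and extremes of 220 bp and 228588 bp. The median gap was 10752 bp in the left arm, 13667 bp in the centre and 18366 bp in the right arm. On the other nuclear chromosomes together it was 17025 bp. A neighbour within 1 kb was present for 108 of the 724 peaks (14.9%, 12.4 to 17.7), against 277 of 2654 (10.4%, 9.30 to 11.7) elsewhere (Fisher exact, adjusted p = 0.00380). Against II, III and V alone, at 10.9%, the difference also passed (adjusted p = 0.00885 by the same Fisher exact test). Density differs between chromosomes, with 41.4 peaks per Mb on IV, 43.8 on III, 34.2 to 36.4 on II, V and X and 8.76 on I, and III, the densest, had 12.6% of peaks with a neighbour within 1 kb. The IV share did not pass with a limit of 5 kb (44.6% against 40.5%, Fisher exact, adjusted p = 0.0809) or with q below 0.001 (11.3% against 6.19%, adjusted p = 0.0881).

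The close neighbours formed 51 clusters on IV, linked by gaps of at most 1 kb, with 19 in the left arm, 22 in the centre and 10 in the right arm. Of these, 46 were pairs and 5 held 3 or 4 peaks, and they spanned 431 to 2880 bp with a median of 966 bp. At least 1 peak was overlapped by both replicates in 31 clusters, and every peak was in 5. These counts were not compared with clusters on other chromosomes or with pairs of isolated peaks, so they describe these clusters only. Clustered peaks were overlapped by both replicates in 37.0% of cases and isolated ones in 31.8%, a difference that did not pass (Fisher exact, adjusted p = 0.346). With a limit of 5 kb it passed, at 37.5% against 28.7% (Fisher exact, adjusted p = 0.0215), and with q below 0.001 its direction turned, at 58.8% against 69.4% (adjusted p = 0.413).

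The cluster with most peaks, IV:11819809-11822688, held 4. Its lowest q was at IV:11821899-11822191 (q = 4.36e-07), which ranked 136 with the maximum score of 3.09 in replicate 1 and 859 with a score of 2.76 in replicate 2. The next peak, IV:11822615-11822688, was overlapped by both replicates at ranks 1387 and 10816. The other peaks were each overlapped by a single replicate, IV:11819809-11819843 by replicate 1 at rank 13701 and IV:11820777-11820976 by replicate 2 at rank 1997. Thus 1 of the 4 peaks was overlapped by peaks ranked within the first 1000 in both replicates.

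A further 4 clusters held 3 peaks each, and the pair of them with the lowest q is described. In the first, IV:15471477-15473515, the peaks differed in coverage. Its first, IV:15471477-15471754 (q = 3.89e-06), ranked 90 and 972, the second is the site already given with ranks 95 and 109, and the third, IV:15473346-15473515 (q = 6.20e-04), was overlapped by neither replicate. In the cluster IV:10935292-10937140, the outer peaks were overlapped by both replicates. IV:10935292-10935629 (q = 2.73e-06) ranked 2530 in replicate 1 and 110 in replicate 2, and IV:10936917-10937140 (q = 1.07e-04) ranked 443 and 2304, so the better-ranked end differed between the replicates. The middle peak, IV:10936002-10936179 (q = 0.00568), was overlapped by replicate 1 alone, at rank 1529. Of the others with 3 peaks, IV:2656483-2658296 had 2 overlapped by both replicates and IV:17380408-17382199 had 1.

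**Figure D3:**
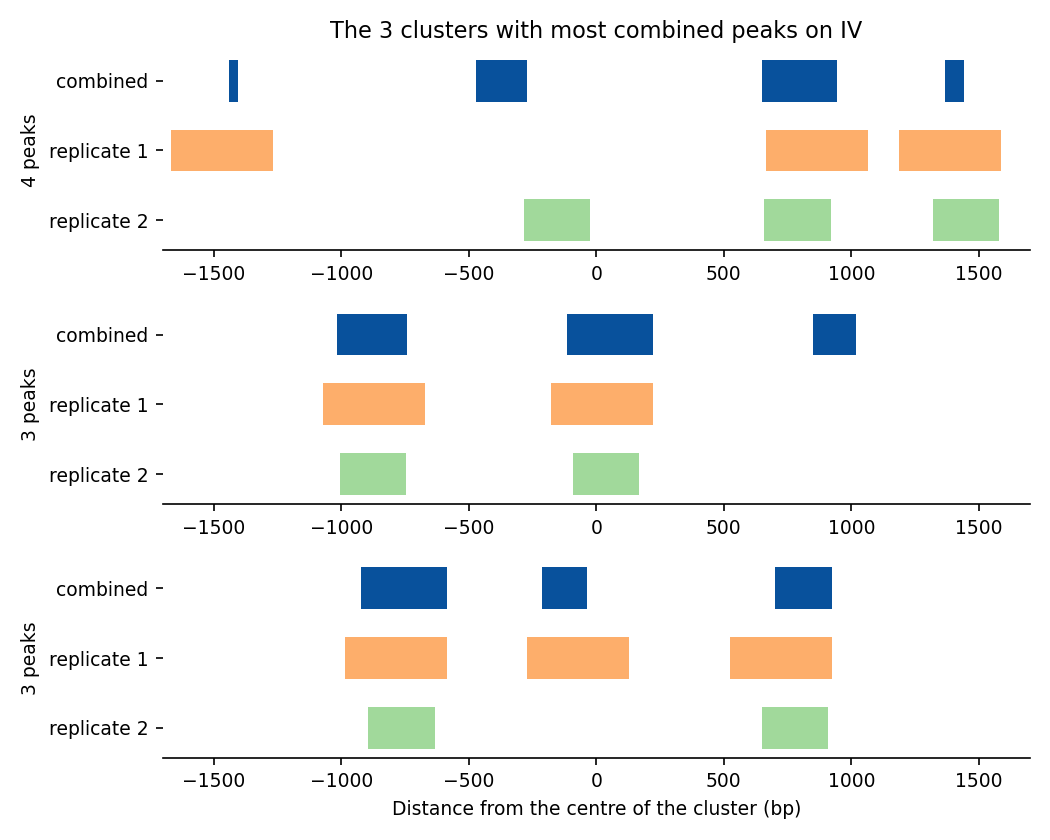
Combined peaks (blue), and the replicate 1 (orange) and replicate 2 (green) peaks that best overlap each of them, in the 3 clusters of chromosome IV with most combined peaks (ties at 3 peaks broken by the lowest q, which leaves out another 2), against distance in bp from the cluster's centre. From the top, the clusters hold 4, 3 and 3 combined peaks, and in each of them 2 are overlapped by both replicates.

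The median width of the combined peaks on IV was 131 bp (interquartile range 47 to 200), against 151 bp (67 to 219) on all other nuclear chromosomes. It was close to the 136 bp (58.8 to 200) of II, III and V together, while the medians of I and X were 250.5 and 178.5 bp. Together the IV peaks covered 106.2 kb or 0.607% of the chromosome. Peaks of at least 400 bp made up 25 of 724 (3.45%, 2.25 to 5.06) on IV and 6.41% elsewhere (Fisher exact, adjusted p = 0.00426), but against II, III and V alone, at 4.65%, the difference did not pass (Fisher exact, adjusted p = 0.244). Peaks of at most 20 bp made up 97 (13.4%) on IV and 11.3% elsewhere, a difference that did not pass (Fisher exact, adjusted p = 0.180). The narrow peaks had a median width of 10 bp, 4 of them covered a single base, and their lowest q was 0.00148. The share with q below 1e-05 was 39 of 724 (5.39%) on IV and 6.33% elsewhere, which did not pass (Fisher exact, adjusted p = 0.383).

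Both replicates had an overlapping peak at 236 of the 724 combined peaks on IV (32.6%, 29.2 to 36.1), where the share over the whole list was 39.1%. Replicate 1 alone overlapped 256 more, replicate 2 alone 120, and neither 112 (15.5%, 12.9 to 18.3), where the whole list had 11.4%. In total, replicate 1 overlapped 492 (68.0%; whole list 72.2%) and replicate 2 overlapped 356 (49.2%; whole list 55.5%). On the other chromosomes the share with both was higher, at 40.8% (39.0 to 42.7; Fisher exact, adjusted p = 4.23e-04), and the share with neither was lower, at 10.2% (9.12 to 11.5; Fisher exact, adjusted p = 6.30e-04). Each replicate on its own also overlapped more peaks there, 73.3% in replicate 1 and 57.3% in replicate 2 (Fisher exact, adjusted p = 0.00885 and 6.30e-04).

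The distance was smaller without I and X. Against II, III and V alone, the share with both was 32.6% against 36.0%, which did not pass (Fisher exact, adjusted p = 0.159), and the shares of replicate 1 (71.3% there, adjusted p = 0.138) and of replicate 2 (53.4%, adjusted p = 0.0971) did not either. The share with neither still passed, at 15.5% against 11.3% (Fisher exact, adjusted p = 0.00881). Among peaks with q below 0.001 it was 5.96% on IV and 3.75% elsewhere, and none of the 4 shares passed.

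Width moved with coverage, which is in part set in advance, since a wider peak meets the 1 bp overlap rule more easily. Combined peaks on IV overlapped by both replicates had a median width of 195 bp and a median q of 0.00151. Those overlapped by neither had a median width of 58.5 bp and a median q of 0.00747, and the single-replicate groups lay between, at 116 bp for replicate 1 and 98 bp for replicate 2. IV had 30.4% of its peaks in the narrowest of 4 equal-sized width classes of the combined list (1 to 62 bp), against 23.7% elsewhere, and 19.2% in the widest (from 209 bp), against 26.5%. Within the width classes the share with both replicates on IV was 16.4%, 22.3%, 37.1% and 65.5% from narrow to wide, against 19.4%, 29.6%, 42.9% and 68.6% elsewhere. No class passed on its own (Fisher exact, adjusted p = 0.243 to 0.486 over the 4). The IV share was the lower in these 4 comparisons. Against II, III and V alone it was the higher in the widest class, at 65.5% against 64.5% (Fisher exact, adjusted p = 0.918). Without replicate 2, the share is that overlapped by replicate 1, and IV was the higher in the narrowest class. There it was 55.0% against 54.5% (Fisher exact, adjusted p = 0.937).

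**Figure D4:**
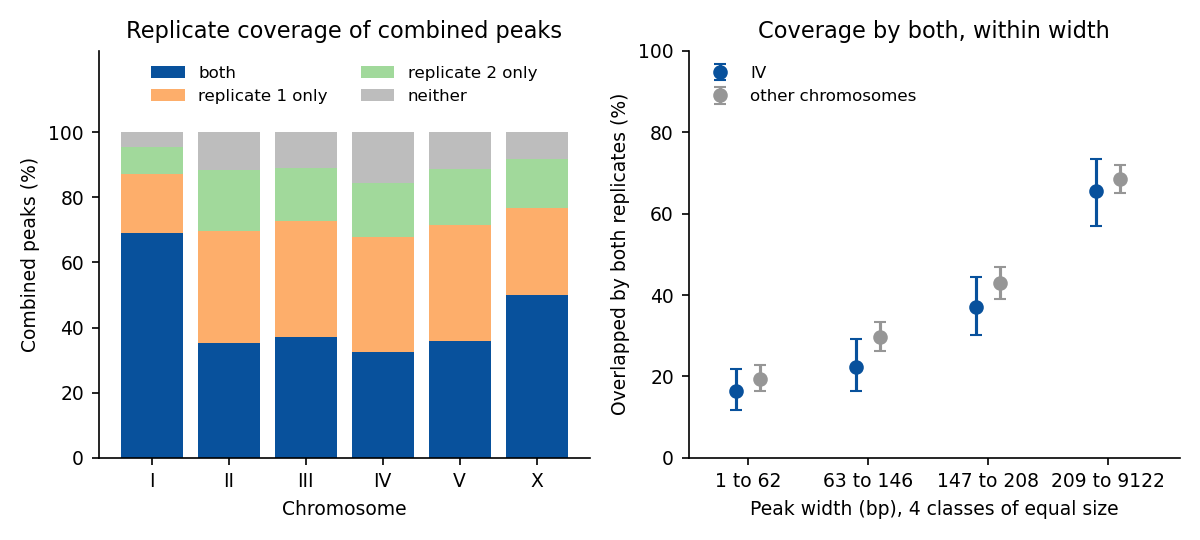
Left, combined peaks of each chromosome by which replicates overlap them, in percent. Right, the percentage overlapped by both replicates within 4 equal-sized classes of peak width for IV (blue) and the other nuclear chromosomes (grey), with exact 95% intervals, which overlap between IV and the others in every class.

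Coverage also followed the q-value within IV. IV peaks were ordered by q and cut into 4 groups of 181. In the group with the lowest q (up to 0.00157), 120 of 181 (66.3%, 58.9 to 73.1) were overlapped by both replicates and 11 by neither. The shares with both fell to 30.4%, 22.1% and 11.6% (7.33 to 17.2) in the following groups, and those with neither reached 27.1% in the last. Median width went from 271 bp in the first group to 61 bp in the last, so q and the ease of overlap of wider peaks were not separated here. Of the 97 peaks of at most 20 bp, 11 were overlapped by both replicates and 30 by neither.

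**Figure D5:**
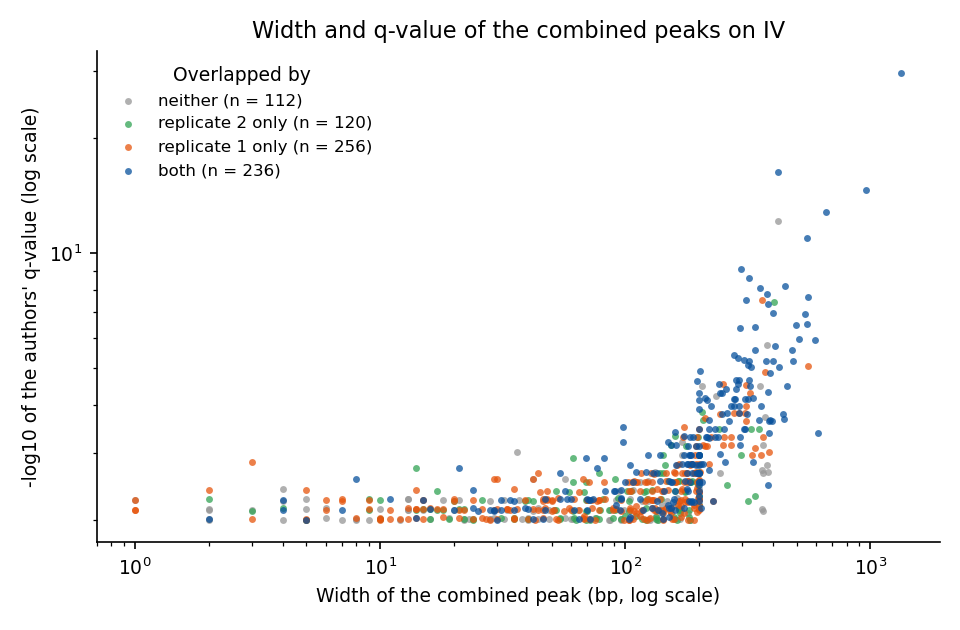
Width in bp and −log10 of the authors' q-value for the 724 combined peaks on IV (both axes logarithmic), coloured by the replicates that overlap them. Peaks overlapped by both replicates lie mostly at large widths and low q-values, with a median width of 195 bp.

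The midpoint of the best-ranked overlapping peak lay a median of 50.5 bp from that of the combined peak in replicate 1 and 46 bp in replicate 2 among peaks overlapped by both. These distances are limited in advance by the overlap rule and the fixed widths of the replicate peaks. Their median rank was 4716 in replicate 1 and 3177 in replicate 2. Where a single replicate overlapped, the median ranks were poorer, 6392 in replicate 1 and 4499 in replicate 2. At combined peaks overlapped by replicate 1 alone, the nearest replicate 2 peak was a median of 1312 bp away, and at those of replicate 2 alone the nearest replicate 1 peak was 788 bp away. A replicate peak was rarely shared between combined peaks, with 1 such case on IV in replicate 1 and 0 in replicate 2.

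Along the chromosome, the share with both replicates was 30.6% in the left arm, 35.8% in the centre and 31.2% in the right arm. The difference between the centre and the arms together (30.9%) did not pass (Fisher exact, adjusted p = 0.227). The share with neither was 12.0%, 15.0% and 21.5%, and the left and right arms differed in it, a test chosen after the shares were seen (Fisher exact, adjusted p = 0.00977 over 3 added tests). The difference was seen with replicate 1 and not with replicate 2, and the replicates were not tested against each other. The complete replicate 1 list held 287 peaks per Mb in the left arm and 229 in the right, against 187 and 173 in replicate 2. With replicate 1 alone, 28.2% of left-arm and 39.2% of right-arm combined peaks had no overlapping peak (Fisher exact, adjusted p = 0.0233 over the 3 added tests). With replicate 2 alone the direction turned, at 53.2% and 51.1% (Fisher exact, adjusted p = 0.919 over the same 3). It did not pass either with the higher-ranking 50% of each list, with midpoints within 100 bp, with arms narrowed so that the centre is 50% of the length, or with q below 0.001.

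Seen from the replicates, the highest-ranked peaks on IV were overlapped by combined peaks more often than those of all other chromosomes together. Of the 3378 highest-ranked nuclear peaks of replicate 1, 479 lay on IV and 201 of these (42.0%, 37.5 to 46.5) were overlapped by a combined peak, against 34.6% elsewhere (Fisher exact, adjusted p = 0.00426). For replicate 2 it was 171 of 534 (32.0%, 28.1 to 36.2) against 25.5% (Fisher exact, adjusted p = 0.00426). Chromosome I held 132 combined peaks against 724 on IV, with 4619 against 4651 peaks of replicate 1 and 3107 against 3351 of replicate 2. The recovered shares on I were 17.4% and 13.7%. Without chromosome I, a setting added after these shares were seen, the other chromosomes had 37.8% and 28.0%, and neither difference passed (Fisher exact, adjusted p = 0.131 and 0.127). Without I and X the values were 38.6% and 27.9% (Fisher exact, adjusted p = 0.230 and 0.123).

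Recovery fell with rank on IV, as it did on the other chromosomes. Among ranks 1 to 300, 37 of 39 replicate 1 peaks and 35 of 38 replicate 2 peaks on IV were overlapped by a combined peak. Among ranks 301 to 1000 it was 61 of 94 and 47 of 103, and from 1001 to 3378 it was 29.7% and 22.8%. Beyond rank 3378 it was 8.36% in replicate 1 and 6.92% in replicate 2. In the same order, the other chromosomes had 93.4%, 56.5%, 21.4% and 5.34% in replicate 1. In replicate 2 they had 76.5%, 33.6%, 17.1% and 5.80%. Differences within these rank groups were not tested. Between the replicate lists, 827 of 3351 replicate 2 peaks on IV (24.7%, 23.2 to 26.2) overlapped a replicate 1 peak, against 26.1% (25.5 to 26.8) on the other chromosomes, a difference that did not pass (Fisher exact, adjusted p = 0.131).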

How the data were processed

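FKH-2 ChIP-seq peaks of 2 ChIP replicates and a combined list were used. Per the file headers, coordinates are WormBase WS220. Per the file's source column, the combined list is from PeakSeq, and the authors deposited a q-value for each peak. The replicate lists name spp via IDR as source, and the authors deposited a score per peak, of unnamed scale, with a rank in the peak name. Aligner, controls, versions, pooling and depth are not given in the sources used here.

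Overlap meant at least 1 bp. Chromosome length was the largest peak end in any list, and a peak's midpoint placed it in the left arm, centre or right arm, each 33.3% of the length. Clusters were linked by edge-to-edge gaps of at most 1 kb. Shares were compared by two-sided Fisher exact or exact binomial tests, with p-values adjusted by the Benjamini-Hochberg method over 16 planned tests, over 4 width classes, or over 3 tests added after seeing the data. Calls used an adjusted p of 0.05. The p-value of an alternative setting was adjusted within the family of its result, with the other p-values kept as reported. Peaks named were the 10 with the lowest q, the 5 with the best poorer rank in both replicates, the 3 widest, the 3 longest gaps and the 3 clusters with most peaks, with ties broken by the lowest q. The members, lists and tests, including the 16 called planned, were chosen with earlier results of these data known. Overlap, spacing and share tests were checked on simulated lists. Alternatives changed the overlap rule, comparison chromosomes, q limit, gap, regions, list length and replicates. Python 3.11.15, numpy 2.4.6, pandas 2.3.3, scipy 1.17.1 and matplotlib 3.10.9 were used.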

Additional observations from a re-analysis of the deposited data

How the results depend on the processing

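Of 122 alternative values, 96 kept their side of the threshold, 22 lost the call, 2 gained it, and 2 turned direction where the reported value or the alternative passed. In 7 of the 96, none of which passed, the direction turned too: 4 with q below 0.001 (clustered against isolated peaks, central share, left against right arm, width of at most 20 bp), 1 with 1 peak per cluster (left against right arm), and the narrowest and widest width classes. The cause was not tested. Against II, III and V alone, calls were lost for the share with both replicates (32.6% on IV), replicate 1 (68.0%), replicate 2 (49.2%), widths of at least 400 bp (3.45%) and recovery of replicate 1 (42.0%) and replicate 2 peaks (32.0%). Both recovery values also lost the call without chromosome I alone. With q below 0.001, which leaves 151 peaks on IV, they were lost for the share with both (68.2%), neither (5.96%), replicate 1 (87.4%), replicate 2 (74.8%), a neighbour within 1 kb (11.3%) and the left arm against 50% of the length (60.5%), while the central share passed (43.0%). The replicate 1 share lost its call with midpoints within 100 bp (55.2%) and with overlap of 50% of the shorter peak (66.3%). With a gap limit of 5 kb, the neighbour share (44.6%) lost its call and the share with both in clustered peaks (37.5%) gained one. Recovery of replicate 1 peaks lost its call within the 1000 highest ranks (72.8%). The left-arm share with neither replicate lost its call with a centre of 50% of the length (14.0%), higher-ranking lists (28.2%), midpoints within 100 bp (22.9%) and q below 0.001 (5.77%). When a replicate was dropped, the left-arm share without an overlapping peak of the other was 28.2% for replicate 1 and 53.2% for replicate 2. The left-arm share with such a peak was 71.8% for replicate 1 and 46.8% for replicate 2, each a share with that single replicate and not with both. A neighbour within 1 kb cannot exist with 1 peak per cluster, so that value was not computed. No paired analysis was possible because the input samples have no processed values used here. Unknown depth limits every comparison of lists.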

Other observations

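The wider combined peaks without any replicate peak on IV had similar widths, a pattern chosen after the values were seen and not tested. Of the 139 IV peaks in the widest width class (from 209 bp), 13 (9.35%) were overlapped by neither replicate, and 10 of these 13 were between 350 and 390 bp wide. In that range, 10 of 28 IV peaks (35.7%) had no replicate peak, whereas it was 2 of 85 between 209 and 349 bp and 1 of 15 between 391 and 500 bp. On the other nuclear chromosomes the same range held 13 uncovered peaks of 92 (14.1%), against 10 of 430 and 3 of 91 in the neighbouring ranges.

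Among the uncovered peaks on IV, 2 had a q below 1e-05. The lower is IV:13549252-13549669, described above, which at 418 bp lies just outside the range. The other is IV:11070911-11071287 (377 bp, q = 1.81e-06), whose nearest replicate peaks lay 141 bp away in replicate 1 and 712 bp away in replicate 2. A pair of uncovered peaks of nearly equal width, IV:9046983-9047348 (366 bp) and IV:9048099-9048462 (364 bp), lay 750 bp apart, with the nearest replicate peaks over 2 kb away. What lies at these sites was not determined, since no annotation of the same build was used.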
